A study of Mus musculus with 9 samples.

Results

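A mouse bladder carrying an MB49 tumour and given alpha1-oleate at 8.5 mM had higher transcript levels of urothelial, smooth muscle and stromal genes, and lower levels of mitosis genes, than one given 1.7 mM. The values are the difference between 2 of the 9 mouse arrays of the series, the tumour bladder given 8.5 mM minus the tumour bladder given 1.7 mM, picked by their labels alone. Of 11969 genes, 718 were at least 2-fold higher at 8.5 mM (6.00% of all) and 328 at least 2-fold lower (2.74%). In the short gene lists below, a count of none or 1 past 2-fold is near these shares and says little about the list. Each dose has 1 array, so no test was possible, no p-value is given, and each difference describes these 2 arrays. Here "rose" and "fell" mean a difference of at least 2-fold, which is 1 on the log2 scale, and every level is a log2 intensity.

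Both bladders came from female C57BL/6J mice of experiment 1, whose bladders were conditioned with poly-L-lysine and then seeded with MB49 mouse bladder carcinoma cells on day 0. Alpha1-oleate was put into the bladder every other day from day 3 to day 11 (days 3, 5, 7, 9, 11), and the organ was taken on day 12. The same experiment holds a tumour bladder given 17 mM on that schedule, a sham-treated tumour bladder given PBS and a healthy bladder given PBS, with 1 array each. Experiment 2, normalized separately, adds a sham-treated tumour bladder, a healthy PBS bladder, and bladders labelled healthy that were given 17 mM and taken after 24 h or 7 days, with 1 array each. The labels give no age and do not say whether an array holds 1 animal or a pool. The whole organ was ground, so tumour, urothelium, muscle, stroma and immune cells share each array, and fewer cells of a type cannot be told apart from less RNA per cell.

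Alpha1-oleate is a complex of oleate with a helical peptide of alpha-lactalbumin, the milk protein, and belongs to a family of protein and fatty acid complexes known for killing tumour cells. The normal bladder is lined by urothelium, whose surface umbrella cells carry plaques of uroplakin proteins over basal cells marked by keratin 5 and p63. Below it lie a fibroblast-rich stroma and the detrusor, the smooth muscle that empties the bladder. MB49 cells were derived from bladder epithelium of a male mouse, and Xist is the transcript by which female cells silence an X chromosome; its level in MB49 cells was not measured here.

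Array medians in experiment 1 ran from 4.42 to 4.45, and the middle gene differed by -0.03 between the doses. The marker genes of the labelled tissue were present on both arrays: the summed level of 7 urothelial markers was 12.14 at 1.7 mM and 13.60 at 8.5 mM, and that of 5 smooth muscle markers was 13.60 and 14.58. Xist stood at 9.15 in sham-treated tumour, 9.26 at 1.7 mM, 9.95 at 8.5 mM, 10.21 at 17 mM and 10.32 in healthy bladder. A guide to the spread comes from the PBS bladders: the tumour-minus-healthy difference of experiment 1 departed from that of experiment 2 by a median of 0.18, and by 2-fold or more in 1.64% of genes. That departure corresponds to an SD of 0.242 for a difference between 2 arrays. It was measured on PBS bladders only and includes the separate normalization.

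The step from 1.7 to 8.5 mM was the widest between neighbouring doses. From sham-treated tumour to 1.7 mM, 271 genes were at least 2-fold higher (2.26%) and 33 at least 2-fold lower (0.276%). From 8.5 to 17 mM the numbers were 11 (0.0919%) and 25 (0.209%). Set against sham-treated tumour, 8.5 mM had 1220 genes higher (10.2%) and 473 lower (3.95%). These comparisons share arrays with each other. Of the genes that rose across the step, 712 of 718 stayed within 2-fold of their 8.5 mM level at 17 mM, and of those that fell 326 of 328 did. Since 0.0919% and 0.209% of all genes passed 2-fold in that step, these counts are not particular to the called genes.

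The 12 largest rises included liver transcripts, a claudin and matrix genes. Alb, serum albumin, rose by 4.96. Its 1.7 mM level of 3.87 lay below 4.16, the mean level under which genes were left out as low, as did those of C1qtnf3, Serpina1b and Serpina1c, so the size of these rises rests on values near the array floor. C1qtnf3, a secreted protein of the C1q and TNF-related family, read 3.63 in sham-treated tumour, 3.85 at 1.7 mM, 7.08 at 8.5 mM, 7.12 at 17 mM and 5.91 in healthy bladder, a rise of 3.23. Its level at 8.5 mM was above both the tumour and the healthy array. Pcolce2, an enhancer of procollagen processing, read 3.78, 4.91, 7.49, 7.87 and 7.65 on the same arrays, so that its 8.5 mM and healthy levels were close. Tppp3, a tubulin-binding protein, rose by 2.38 to 7.81, above the 7.07 at 17 mM and the 6.16 in healthy bladder. The other members of the 12 were Serpina1c (3.19), Serpina1b (2.86), Cldn8 (2.80), Cntnap2 (2.67, or 1.39 with the mean of its probe sets), Slc16a12 (2.59), Armh4 (2.46), Ttr (2.33) and Uchl1 (2.29).

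The 12 largest falls were of another kind, since many of these genes stood higher at 1.7 mM than in untreated tumour. Lcn2, the iron-scavenging lipocalin of neutrophils and inflamed epithelium, read 8.09 in sham-treated tumour, 8.33 at 1.7 mM, 3.91 at 8.5 mM, 4.18 at 17 mM and 4.65 in healthy bladder. It therefore fell by 4.42 on the log2 scale, from the tumour level to one below the limit of 4.16, so that the size of the fall also rests on a value near the array floor. Cp, the copper-carrying ferroxidase ceruloplasmin, read 8.51, 9.84, 6.62, 6.41 and 5.48 and fell by 3.22, or 1.87 with the mean of its probe sets. Nxf3, of the mRNA export factor family, read 7.75, 7.78, 4.96, 5.10 and 3.02 and fell by 2.82, starting at the sham level. The remaining 9 were Ankrd29 (-3.43), Arrdc2 (-2.89), Tsc22d3 (-2.79), M1ap (-2.79), Fkbp5 (-2.74, or -1.73 with the mean of its probe sets), Mt3 (-2.72), Fam107a (-2.66), Slco4a1 (-2.62) and Hoga1 (-2.55). All 9 stood highest at 1.7 mM among the 5 arrays of the experiment, a position that choosing the largest falls from 1.7 mM favours.

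**Figure D1:**
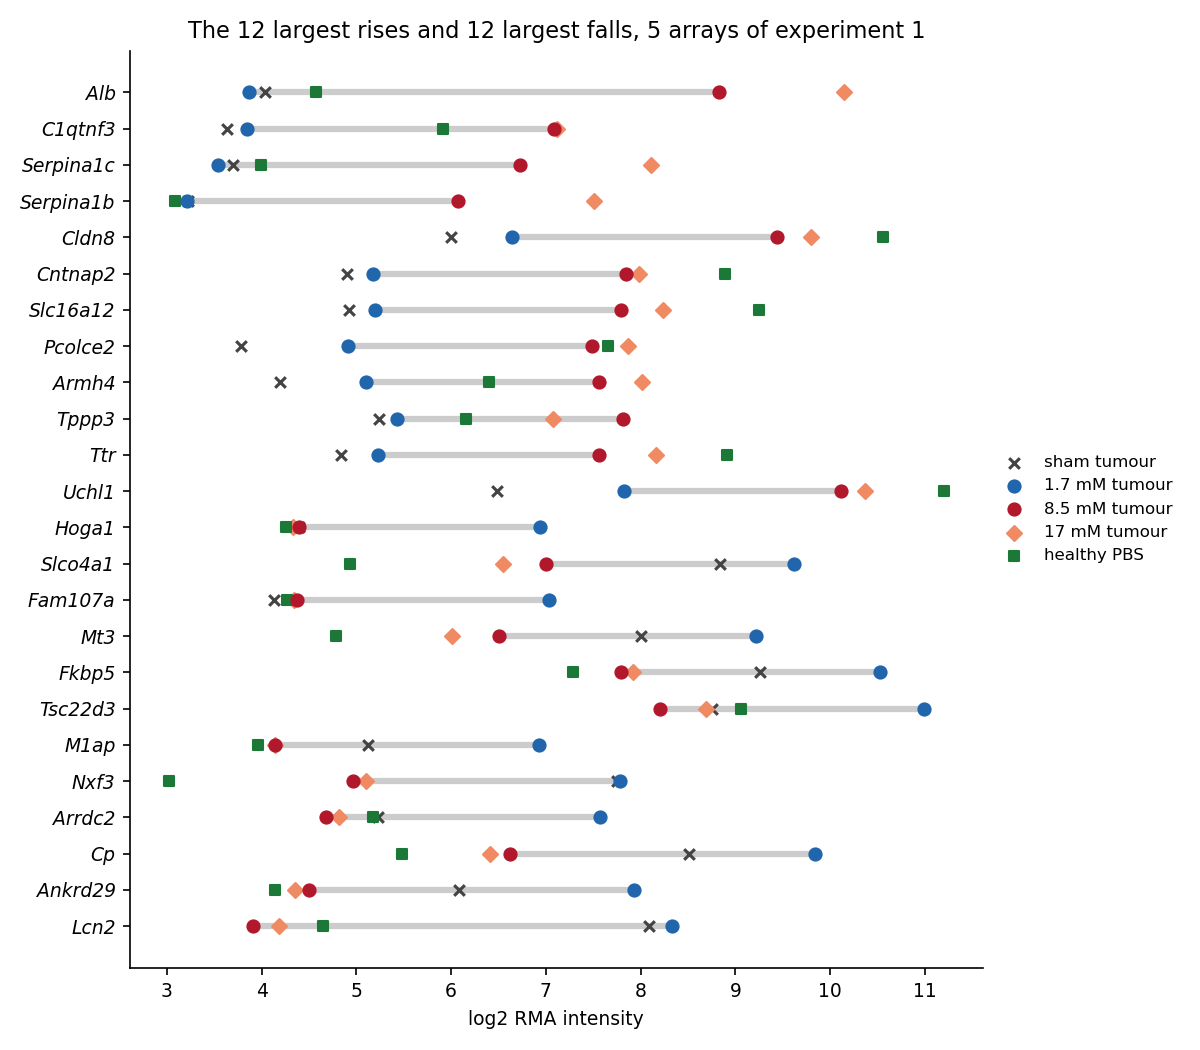
Log2 intensity (horizontal axis) of the 12 largest rises and 12 largest falls from 1.7 mM (blue circle) to 8.5 mM (red circle), with the sham-treated tumour (cross), 17 mM tumour (diamond) and healthy PBS (square) arrays of experiment 1, 1 array each. The grey bar joins the doses compared; Lcn2 runs from 8.33 down to 3.91 and Alb from 3.87 up to 8.83.

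Genes of the umbrella cell rose. Of 14 listed genes, 9 rose and none fell, with a median difference of 1.27. Upk2, a uroplakin, read 7.80 in sham-treated tumour, 8.33 at 1.7 mM, 10.40 at 8.5 mM, 10.56 at 17 mM and 11.22 in healthy bladder. Its rise of 2.07, or 4.21-fold, left it below the healthy level. Upk1a (1.95) and Upk3b (2.0) had rises of like size. Snx31, a sorting nexin found with uroplakins, rose by 2.03. Krt20, the keratin of mature umbrella cells, followed another course: 5.93, 7.80, 8.66, 8.97 and 9.50, so that its larger difference came before the step and 0.86 within it. Krt8, a simple keratin that carcinoma cells also express, differed by -0.09, and all 5 arrays lay between 11.70 and 12.00.

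Transcription factors of urothelial differentiation moved alongside, with 5 of 12 higher, none lower and a median of 0.79. Pparg, the nuclear receptor that drives urothelial maturation, read 5.59, 6.49, 8.26, 8.53 and 9.20 on the sham, 1.7 mM, 8.5 mM, 17 mM and healthy arrays and rose by 1.77. Grhl3, a factor of barrier formation, rose by 1.73, Ehf, an epithelial ETS factor, by 1.57 and Gata3 by 1.49. Irf1, an interferon-responsive factor on the same list, differed by -0.29.

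The basal layer was represented by fewer genes. Of 11 basal and squamous genes, 3 rose and none fell, and the median was 0.40 (0.18 with no filter on low genes, 0.94 with the lowest 50% left out). Trp63, which encodes p63, read 6.12, 6.92, 8.48, 9.03 and 9.94 and rose by 1.56. With the mean of its probe sets Trp63 differed by 0.62, short of 2-fold. Krt5 rose by 1.40 to 10.13 and Ivl, the envelope protein involucrin, by 1.51 to 10.79. Krt14 went the other way, with 9.93 in sham-treated tumour, 9.87 at 1.7 mM, 9.07 at 8.5 mM, 8.63 at 17 mM and 4.28 in healthy bladder, a difference of -0.80. At 8.5 mM, Krt14 thus stayed far above the healthy array while Krt5, at 10.13 against 10.93, lay just below its healthy level.

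Junction genes showed the same direction with named exceptions. Among tight junction genes 5 of 13 rose and 1 fell (median 0.71), and among desmosome and cadherin genes 6 of 12 rose and 1 fell (median 1.05). Cldn8, a barrier claudin, read 6.00, 6.64, 9.44, 9.80 and 10.56 on the sham, 1.7 mM, 8.5 mM, 17 mM and healthy arrays. Its rise of 2.80 was the largest of any junction gene listed. Marveld3, a tight junction membrane protein, rose by 1.98 and Tjp3 by 1.27. Dsg2, a desmosomal cadherin, rose by 1.59, Perp by 1.41, Dsc2 by 1.25 and Dsp, desmoplakin, by 1.19. With the mean of probe sets Dsc2 (0.84) and Dsp (0.89) were short of 2-fold, Dsg2 was at 1.04 and Marveld3 at 1.10. The claudin that fell was Cldn3, at 6.72, 6.59, 5.36, 5.28 and 4.66, which was higher in tumour than in healthy bladder. Ppl, periplakin, read 6.50, 8.66, 7.51, 7.65 and 8.23. It stood highest at 1.7 mM, and its fall of 1.15 left it above the sham level.

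**Figure D2:**
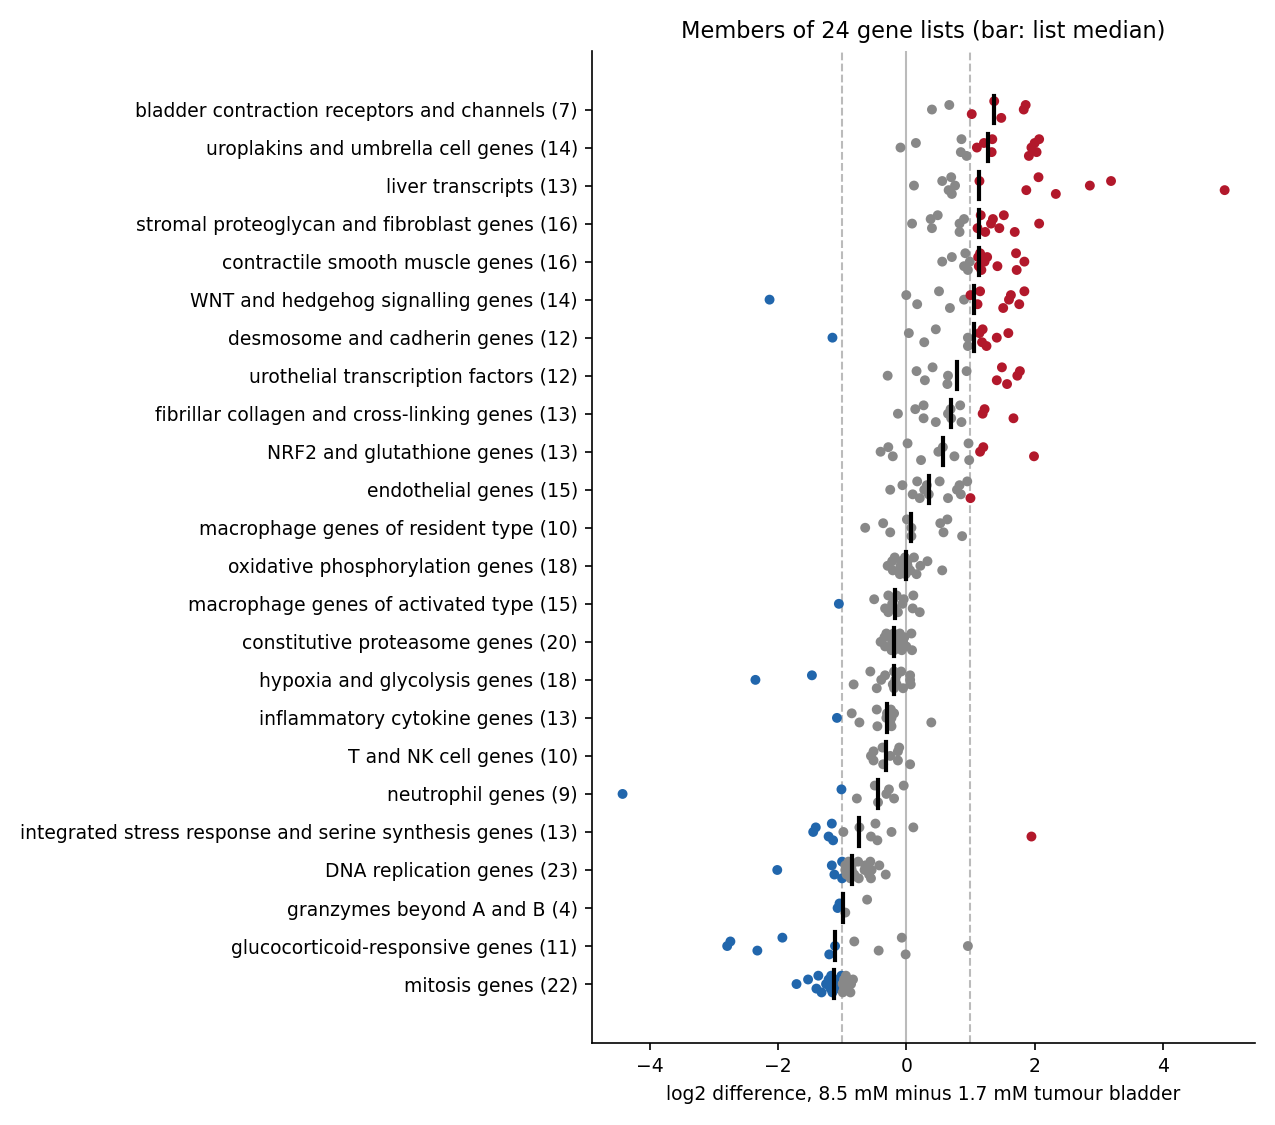
Log2 difference, 8.5 mM minus 1.7 mM (horizontal axis), of the members of 24 gene lists above the expression filter (their number in brackets). Red marks a rise of at least 2-fold, blue a fall and grey neither. Members below the filter are not shown. The black bar is the list median, from 1.37 for bladder contraction genes down to -1.12 for mitosis genes; oxidative phosphorylation genes centre on -0.01.

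Smooth muscle genes rose together. Of 16 contractile genes 10 rose, none fell, and the smallest difference was 0.56 (median 1.14). Myh11, the myosin heavy chain of smooth muscle, read 9.87 in sham-treated tumour, 11.01 at 1.7 mM, 12.16 at 8.5 mM, 12.49 at 17 mM and 11.82 in healthy bladder. It rose by 1.15 and passed the healthy level, as did Casq2, the calcium store protein calsequestrin, which rose by 1.84 to 8.01 against 7.83 in healthy bladder. Lmod1, leiomodin, rose by 1.72, Pgm5 by 1.71 and Myocd, the master coactivator of smooth muscle genes, by 1.42, or 0.85 with the mean of its probe sets. Acta2, the actin shared with activated fibroblasts, differed by 0.71. The list's median stood 1.55 above sham-treated tumour at 8.5 mM and 1.57 above it in healthy bladder.

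Receptors and channels of bladder contraction had a list median of 1.37, with 5 of 7 higher and none lower. The median was 0.84 with no filter on low genes and 0.90 with the mean of probe sets. P2rx1, the ATP-gated channel through which parasympathetic nerves contract the detrusor, read 6.24, 7.79, 9.65, 10.10 and 9.31 on the sham, 1.7 mM, 8.5 mM, 17 mM and healthy arrays and rose by 1.86. Rgs5, a G-protein regulator of mural cells, rose by 1.83, Kcnmb1, a subunit of the calcium-gated potassium channel, by 1.48 and Atp2a2, the calcium pump, by 1.37, or 0.45 with the mean of its probe sets. Pcp4, a calmodulin regulator, read 5.05, 8.79, 10.78, 11.05 and 9.85. Its rise of 1.99 followed a larger difference of 3.74 between sham-treated tumour and 1.7 mM.

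Of 8 striated muscle genes 2 rose, none fell, and the median was 0.24. That median depended on the filter, with 0.03 for no filter and 1.54 with the lowest 50% left out. Acta1 rose by 1.55 to 10.99 and Ckm, muscle creatine kinase, by 1.53 to 8.43, or 0.72 with the mean of its probe sets. The summed level of 3 skeletal muscle markers was 9.30 in sham-treated tumour, 9.70 at 1.7 mM, 11.23 at 8.5 mM, 11.46 at 17 mM and 10.63 in healthy bladder. That sum rests on Acta1 and Ckm, since the remaining marker, Mylpf, was below the filter and differed by 0.01. Pvalb, parvalbumin of fast fibres, stayed between 4.36 and 4.68 on the 5 arrays.

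Stromal genes rose, and a number of them passed the healthy level. Of 16 proteoglycan and fibroblast genes 9 rose and none fell (median 1.14). Clec3b, tetranectin, read 6.50, 8.06, 10.13, 10.27 and 9.24 on the sham, 1.7 mM, 8.5 mM, 17 mM and healthy arrays and rose by 2.07. Dpt, dermatopontin, rose by 1.69, Mfap4, a microfibril protein, by 1.52 and Ogn, osteoglycin, by 1.45. Lum, the keratan sulphate proteoglycan lumican, read 8.81, 10.28, 11.39, 11.39 and 9.75, so that 8.5 mM lay 1.64 above healthy bladder. Pdgfra, the receptor that marks fibroblasts, differed by 0.09.

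Fibrillar collagen genes had 3 of 13 higher, none lower and a median of 0.69. Col1a1, the main chain of type I collagen, read 8.98, 9.77, 10.99, 11.10 and 8.92 and rose by 1.22, to 2.07 above healthy bladder. Col14a1, a collagen of fibril surfaces, rose by 1.67 and Loxl1, an elastin cross-linker, by 1.19, or 0.77 with the mean of its probe sets. In experiment 2 the list's median was 0.79 lower in healthy bladder than in sham-treated tumour, so the list's difference across the step had the opposite direction. Plod2, a collagen lysyl hydroxylase, differed by -0.13.

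Of the genes that rose across the step, 85 of 718 stood at least 2-fold above the healthy array of experiment 1 at 8.5 mM, 429 lay within 2-fold of it and 204 at least 2-fold below it. No share over all genes stands beside these counts, so they describe the risers alone and do not set them apart from other genes. Stromal genes among the 85 included Postn, a matricellular protein of wound repair, at 9.20, 9.50, 10.83, 10.80 and 9.45 on the sham, 1.7 mM, 8.5 mM, 17 mM and healthy arrays. Tcf21, a transcription factor of fibroblast precursors, read 7.64, 9.31, 10.72, 10.79 and 8.78. Col11a1, a fibril-nucleating collagen, read 4.05, 4.0, 5.68, 6.07 and 3.85, and its 2 PBS arrays of experiment 2 differed by 0.01. These 3 were chosen after their values were seen.

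Matrix remodelling genes did not share a direction. Mmp2, gelatinase A of fibroblasts, rose by 1.33 to 10.07 and Timp3, a protease inhibitor, by 1.21, while the other 11 of 13 protease and inhibitor genes stayed within 2-fold (median -0.09). Mmp10, an epithelial stromelysin, differed by -0.84. Fn1, fibronectin, rose by 1.09 and was the one of 9 mesenchymal transition genes to pass 2-fold (median -0.04). Basement membrane genes had 2 of 10 higher and 1 lower: Lama2 rose by 1.35 and Col4a5 by 1.15, and Lama3, the epithelial laminin chain, read 7.04, 8.45, 6.62, 6.84 and 7.44 and fell by 1.83 from a peak at 1.7 mM. With the mean of its probe sets Lama3 differed by -0.88.

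Signals exchanged between urothelium and stroma were mostly higher at 8.5 mM. Of 14 WNT and hedgehog genes 8 rose and 1 fell (median 1.06). Wnt5a, a ligand of stromal cells, read 6.59 in sham-treated tumour, 7.19 at 1.7 mM, 9.03 at 8.5 mM, 9.51 at 17 mM and 10.10 in healthy bladder and rose by 1.84. Wnt2 rose by 1.76 to 9.05 and the WNT antagonist Dkk2 by 1.63 to 7.00, against 6.98 and 4.59 in healthy bladder. Ptch1, the hedgehog receptor and target, read 7.08, 7.41, 8.41, 9.01 and 8.10. Wnt10a, a ligand higher in tumour, read 7.67, 7.61, 5.48, 5.48 and 5.10 and fell by 2.13 without any difference before the step beyond -0.06.

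**Figure D3:**
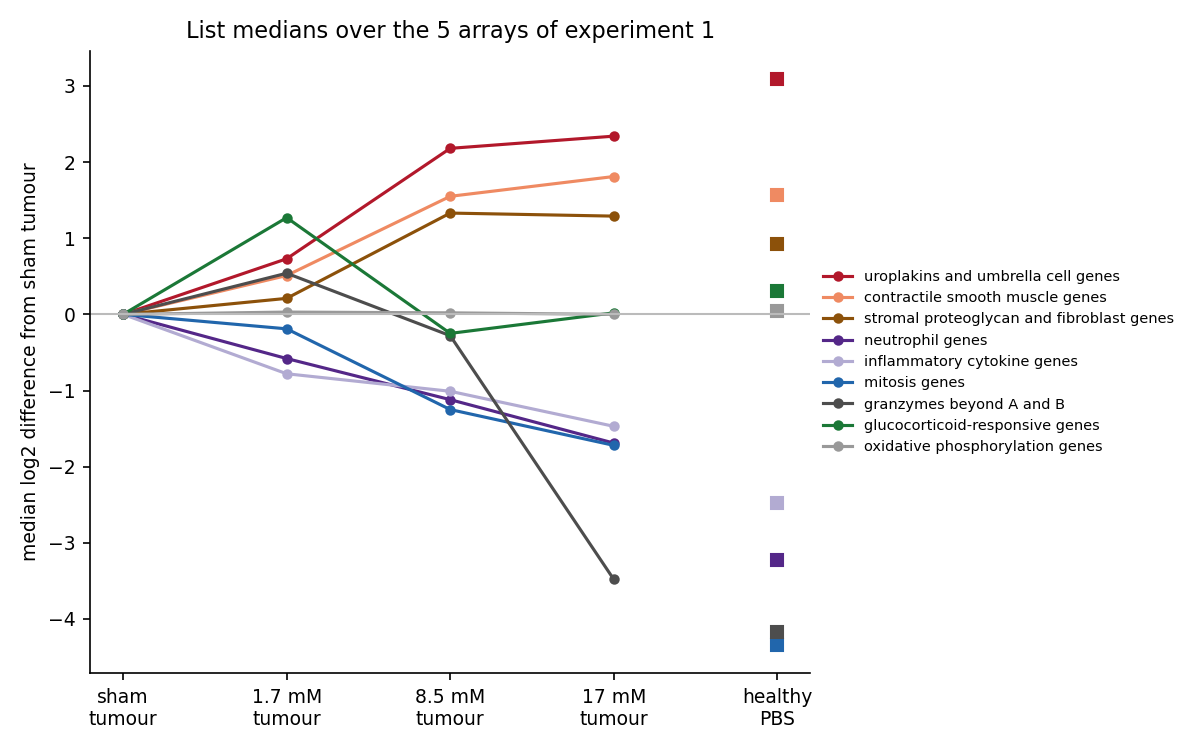
Median log2 difference from the sham-treated tumour array (vertical axis) of 9 gene lists on the treated arrays of experiment 1 (circles, joined by dose) and the healthy array (squares), 1 array each. Umbrella cell genes run from 0.73 at 1.7 mM to 2.18 at 8.5 mM, mitosis genes from -0.19 to -1.25, and glucocorticoid-responsive genes from 1.27 to -0.25.

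Mitosis genes fell as a group. Of 22 listed genes 14 fell, none rose, and all 22 differed by between -1.71 and -0.83 (median -1.12). Kif23, a kinesin of the cleavage furrow, read 6.24 in sham-treated tumour, 6.24 at 1.7 mM, 4.53 at 8.5 mM, 4.38 at 17 mM and 2.44 in healthy bladder. The tumour and 1.7 mM arrays were level, and the healthy array lay well below 8.5 mM. Aurkb, the kinase of the chromosomal passenger complex, fell by 1.53, Kif20a by 1.40 and Nusap1, a spindle protein, by 1.37. With the mean of its probe sets Nusap1 differed by -0.86. For 20 of the 22 genes the difference was larger than the departure of the gene's own tumour-minus-healthy difference between the experiments. The same held for 59.8% of all genes. Mki67, the proliferation marker, read 9.64, 9.32, 8.49, 8.05 and 3.72, a difference of -0.83. Top2a, the topoisomerase that frees replicated chromosomes, differed by -0.97, from 10.27 to 9.30 against 4.43 in healthy bladder. The list's median stood 1.25 below sham-treated tumour at 8.5 mM, and that of healthy bladder 4.34 below it.

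Promoters of mitosis genes commonly hold a cell cycle homology region, the sequence TTTGAA, near the start site, often beside a CCAAT box, and repressor complexes act on it outside the dividing state. In the RefSeq windows of GRCm38.p6 from 250 bases before to 50 after the start, TTTGAA on either strand was found in 17 of 21 windows of the mitosis list (81.0%) and in 17.9% of all 32851 windows. CCAAT, which shares no overlap with it by its letters, was in 17 of 21 (81.0%) and in 37.4% of all. These windows covered 19 of the 22 genes. The DNA replication list had TTTGAA in 3 of 21 windows (14.3%) and CCAAT in 13 of 21 (61.9%). Over every gene with a window, TTTGAA was in 22.5% of windows of genes that fell, 13.3% of genes that rose and 12.0% of genes within 2-fold. A match of letters is not a shown binding site. The 150 bases before the start are given for the 4 mitosis genes with the largest fall that hold TTTGAA there, 5′ to 3′ on the gene's strand, with TTTGAA and CCAAT, or their reverse complements TTCAAA and ATTGG, in capitals.
Kif11 (chr19:37376232-37376381, plus strand): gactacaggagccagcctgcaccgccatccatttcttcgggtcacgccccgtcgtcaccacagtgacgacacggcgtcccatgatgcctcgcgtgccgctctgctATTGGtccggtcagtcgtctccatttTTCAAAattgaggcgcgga
Prc1 (chr7:80294326-80294475, plus strand): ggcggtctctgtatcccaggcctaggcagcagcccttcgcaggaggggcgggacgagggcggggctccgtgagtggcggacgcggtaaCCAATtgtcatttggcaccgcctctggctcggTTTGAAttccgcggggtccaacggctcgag
Cep55 (chr19:38054891-38055040, plus strand): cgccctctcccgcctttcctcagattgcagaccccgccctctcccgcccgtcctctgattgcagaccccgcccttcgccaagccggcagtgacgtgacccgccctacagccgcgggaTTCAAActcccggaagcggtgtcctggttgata
Cdk1 (chr10:69352913-69353062, minus strand): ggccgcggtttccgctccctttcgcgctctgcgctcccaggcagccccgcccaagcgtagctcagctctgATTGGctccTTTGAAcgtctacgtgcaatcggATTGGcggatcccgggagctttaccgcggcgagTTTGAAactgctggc
In Kif11, a spindle kinesin that fell by 1.18, the match starts 19 bases before the start site, and in Prc1, a spindle midzone protein that fell by 1.15, 30 bases before it. Cep55, a protein of the final abscission, fell by 1.12 and has its match 33 bases before the start. Cdk1, the kinase that triggers mitosis, fell by 1.01 and holds a pair of matches, 71 and 15 bases before the start.

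DNA replication genes differed in the same direction by less, with 5 of 23 lower, none higher and a median of -0.85. Rrm2, the inducible subunit of ribonucleotide reductase, read 9.84, 10.65, 8.64, 8.27 and 4.50 on the sham, 1.7 mM, 8.5 mM, 17 mM and healthy arrays. Its fall of 2.01 started from a level at 1.7 mM above that of untreated tumour. Tk1, thymidine kinase, fell by 1.16 and Pole, the leading-strand polymerase, by 1.12. Mcm5, of the replicative helicase, differed by -0.56 and Pcna, the sliding clamp, by -0.32.

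Genes of the integrated stress response and serine synthesis had 5 of 13 lower, 1 higher and a median of -0.73. Trib3, a pseudokinase induced by this response, read 7.27, 6.78, 5.33, 5.37 and 4.64 and fell by 1.45. Psph, the last enzyme of serine synthesis, fell by 1.41 and Asns, asparagine synthetase, by 1.21. Atf4, the response's transcription factor, differed by -0.23. Vldlr, a lipoprotein receptor, was the member that rose, by 1.95 to 5.74 against 6.84 in healthy bladder, or by 0.88 with the mean of its probe sets. Chaperone genes of the cytosol and endoplasmic reticulum had none of 17 past 2-fold in either direction, with a median of -0.15.

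Growth factor signalling genes changed in few members. Of 13 ERK output genes 2 fell and none rose (median -0.33): Dusp4, a phosphatase induced by ERK, by 1.21 and Myc by 1.02. Erbb3, a receptor that pairs with ERBB2, read 10.15, 10.53, 8.87, 8.95 and 9.15 and fell by 1.66, the one of 9 EGF family genes to pass 2-fold; with the mean of probe sets it differed by -0.86. Among 18 hypoxia and glycolysis genes 2 fell, Ddit4 by 2.35 and Adm, adrenomedullin, by 1.47, and the median was -0.19. Car9, a hypoxia marker, read 7.24, 6.29, 6.10, 4.92 and 4.94, so that its larger differences lay on either side of the step.

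Several transcripts far higher in sham-treated tumour than in healthy bladder fell within the step. Prkg2, a cGMP-dependent kinase, read 9.67 in sham-treated tumour, 9.71 at 1.7 mM, 7.48 at 8.5 mM, 7.42 at 17 mM and 3.31 in healthy bladder. Piwil4, a germline Argonaute protein, read 7.74, 7.52, 5.57, 5.24 and 2.91, and Xlr, an X-linked lymphocyte-regulated gene, 8.50, 8.50, 6.57, 6.16 and 2.59. Msln, mesothelin, read 9.31, 9.66, 7.22, 7.11 and 6.27. These 4, chosen after their values were seen, were level from sham to 1.7 mM within 0.35 and differed by -2.44 to -1.93 across the step. Rhox5, a homeobox gene of the germline list, differed by -0.69.

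Several glucocorticoid-responsive genes peaked at the low dose. Of 11 listed genes, 6 were at least 2-fold higher at 1.7 mM than in sham-treated tumour, and 6 fell from 1.7 to 8.5 mM (median -1.11). Tsc22d3, the anti-inflammatory leucine zipper protein GILZ, read 8.75 in sham-treated tumour, 10.99 at 1.7 mM, 8.20 at 8.5 mM, 8.69 at 17 mM and 9.06 in healthy bladder. Fkbp5, a cochaperone of the glucocorticoid receptor, read 9.26, 10.53, 7.79, 7.92 and 7.29. Sgk1, a kinase that regulates sodium transport, read 9.97, 11.55, 9.23, 9.04 and 9.07, and Per1, a clock gene with a glucocorticoid response, 6.29, 7.81, 5.88, 6.31 and 6.89. In each of these 4 the 1.7 mM array was the highest of the 5, and 8.5 mM lay below sham-treated tumour. Klf9 behaved otherwise, at 7.06, 9.06, 9.05, 9.63 and 9.21, and Pdk4, a kinase that limits glucose oxidation, read 3.97, 7.11, 6.68, 7.31 and 8.46. Both were high on all treated arrays and low only in sham-treated tumour. Cdkn1c was the 1 listed gene with a higher level at 8.5 mM, by 0.96, short of 2-fold. The list was written with earlier results of these data known, so its direction is a description. The labels do not give the hour at which the bladders were taken.

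The glucocorticoid receptor binds the palindrome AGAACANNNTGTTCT in its full form, which was found in 3 of all 32851 promoter windows on either strand (0.00913%). It was in 1 of 18 windows of the list, that of Sgk1. The palindrome was in none of the 671 windows of genes that rose and none of the 11299 of genes within 2-fold. With 3 matches in all, these counts cannot tell the groups apart. Bases 250 to 131 before one RefSeq start of Sgk1 are shown with the match in capitals; it begins 189 bases before the start.
Sgk1 (chr10:21993640-21993759, plus strand): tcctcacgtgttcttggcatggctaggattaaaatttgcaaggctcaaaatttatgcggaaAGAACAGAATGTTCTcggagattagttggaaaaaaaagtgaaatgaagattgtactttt
Partial sites and sequence further away were not searched.

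The peak at 1.7 mM was wider than this list. Of the 328 genes that fell, 181 had their highest level of the 5 arrays at 1.7 mM, and 37 stood at least 2-fold above sham-treated tumour there. These genes were called for a 1.7 mM level above that at 8.5 mM. That choice favours a peak at 1.7 mM, so the 2 counts are not separate evidence of one. Counting every gene, 32 were at least 2-fold higher at 1.7 mM than on each of the other 4 arrays and 0 at least 2-fold lower. The same counts were 0 and 0 for 8.5 mM, 7 and 0 for 17 mM, 26 and 187 for sham-treated tumour, and 263 and 740 for healthy bladder. Fam107a, a stress-induced actin-binding protein, read 4.13 in sham-treated tumour, 7.03 at 1.7 mM, 4.37 at 8.5 mM, 4.34 at 17 mM and 4.27 in healthy bladder. Hoga1, an enzyme of hydroxyproline breakdown, read 4.39, 6.94, 4.39, 4.33 and 4.26, and Arrdc2, an arrestin-like protein, 5.23, 7.57, 4.68, 4.82 and 5.18. All 3 were highest at 1.7 mM, with the other 4 arrays at or below 5.23. Ddit4, an inhibitor of mTOR complex 1 that glucocorticoids and hypoxia both induce, read 9.47, 10.97, 8.62, 8.65 and 8.67. With sham-treated tumour in place of the 1.7 mM array, the median of the glucocorticoid list was -0.25.

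**Figure D4:**
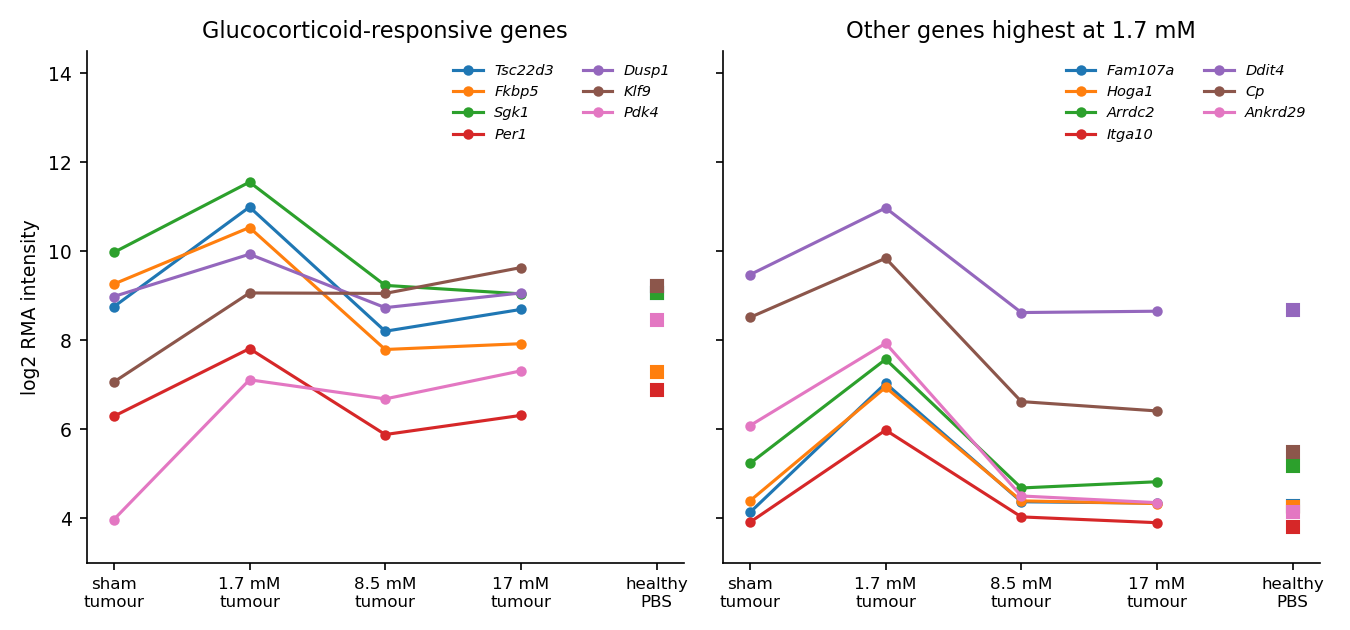
Log2 intensity (vertical axis) of 7 glucocorticoid-responsive genes (left) and 7 other genes (right) on the sham-treated tumour and the 3 dosed tumour arrays of experiment 1 (circles, joined by dose) and the healthy array (squares), 1 array each. Tsc22d3 peaks at 10.99 and Fam107a at 7.03 at 1.7 mM, while Klf9 keeps 9.06 and 9.05 at 1.7 and 8.5 mM.

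Clock genes beyond Per1 had little in common. Of 13 genes 1 rose and 1 fell, with a median of -0.06. Npas2, a partner of the clock activator, read 3.33, 3.67, 5.46, 5.14 and 4.75 and rose by 1.79, from near the array floor; with the mean of probe sets it differed by 0.90. Dbp, an output factor, read 4.63, 5.98, 6.75, 8.24 and 8.62, a difference of 0.77 within the step. Among 13 p53 target genes 2 rose and 2 fell, with 11 of the 13 differences below 0 and a median of -0.49. Phlda3 rose by 1.51 and Perp by 1.41, while Eda2r fell by 1.35 and Trp53inp1 by 1.22. Trp53inp1 read 6.89, 9.16, 7.94, 8.25 and 8.97, again with its highest level at 1.7 mM, and differed by -0.83 with the mean of its probe sets. None of 11 BCL2 family genes passed 2-fold, and their median was -0.17.

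Inflammatory genes differed little across the step, and several were already lower at 1.7 mM. S100a8, a subunit of neutrophil calprotectin, read 10.14 in sham-treated tumour, 8.17 at 1.7 mM, 7.90 at 8.5 mM, 8.01 at 17 mM and 3.38 in healthy bladder. Its difference was -1.97 before the step and -0.27 within it. Of 9 neutrophil genes 2 fell, Lcn2 and the formyl peptide receptor Fpr2 (-1.01, or -0.99 after joint normalization), none rose, and the median was -0.44. Lcn2, which fell by 4.42, and S100a8 thus took different courses, although both are abundant in neutrophils. The summed level of 3 measured neutrophil markers was 11.44, 9.54, 9.30, 9.36 and 6.28 on the sham, 1.7 mM, 8.5 mM, 17 mM and healthy arrays.

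Cytokine genes had 1 of 13 lower, none higher and a median of -0.30. Cxcl1, a neutrophil attractant, read 8.06, 7.03, 5.95, 5.85 and 3.45 and fell by 1.08. Ccl7, a monocyte attractant, differed by 0.39. Among 13 interferon and class I genes 1 rose and 1 fell: Ifit3, an antiviral protein, read 7.38, 7.05, 8.09, 7.15 and 6.35, and Ido1, a tryptophan-degrading enzyme, 6.94, 6.72, 5.54, 4.93 and 3.43. The rise of Ifit3 by 1.04 was not kept at 17 mM. Cxcl9, an interferon-gamma chemokine, differed by -0.40.

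Macrophage and lymphocyte genes stayed near their 1.7 mM levels. None of 10 resident-type macrophage genes and none of 10 class II genes passed 2-fold (medians 0.08 and -0.05). Cd163, a haemoglobin scavenger receptor, read 6.14, 8.03, 7.39, 7.83 and 5.28, and Lyve1 5.79, 8.22, 7.97, 8.20 and 7.21, so both were high on every treated array. Of 15 activated-type genes Gpnmb fell, by 1.05 (median -0.18), and Arg1, arginase, differed by 0.10. None of 10 T and NK cell genes passed 2-fold (median -0.31). Cd3e differed by -0.11 and Gzmb by -0.36. Over all genes 6.00% rose and 2.74% fell, so none of 10 is near that share and says little about these lists. Ptprc, the pan-leukocyte CD45, read 9.92, 9.66, 9.53, 9.08 and 6.02.

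The granzymes beyond A and B were placed differently on the dose scale. Gzmd read 7.87 in sham-treated tumour, 8.73 at 1.7 mM, 7.66 at 8.5 mM, 3.89 at 17 mM and 2.42 in healthy bladder, and Gzmg 7.20, 7.70, 6.66, 3.34 and 2.77. Both fell across the step, by 1.07 and 1.04, yet the larger differences from sham-treated tumour came at 17 mM. These 2 of the 4 listed genes passed 2-fold here (median -0.99), whereas all 4 did in the next step, to 17 mM (median -3.15). The tumour-minus-healthy differences of Gzmd and Gzmg departed by 1.26 and 1.52 between the experiments, more than these falls. Of the 4 genes, 1 differed across the step by more than its own departure, against 59.8% of all genes.

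Vessel and mast cell genes differed modestly. Sox17, an arterial endothelial factor, rose by 1.0, the one of 15 endothelial genes to pass 2-fold (median 0.35), and Pecam1 differed by 0.21. Sox17 was short of 2-fold with the mean of probe sets (0.65) and after joint quantile normalization (0.93). Gata2 rose by 1.37 and was the one of 7 mast cell genes to do so (median 0.49, or 0.28 with no filter on low genes and 0.80 with the lowest 50% left out); it is also expressed outside mast cells. Cpa3, a mast cell protease, read 4.74, 5.83, 6.55, 6.01 and 4.24. The summed level of 3 mast cell markers was 7.17 at 1.7 mM and 7.72 at 8.5 mM.

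Metabolic and detoxification genes rose in small numbers. Of 13 NRF2 and glutathione genes 3 rose and none fell (median 0.57). Nqo1, a quinone reductase, read 4.55, 5.78, 7.77, 8.41 and 9.00 on the sham, 1.7 mM, 8.5 mM, 17 mM and healthy arrays and rose by 1.99. Gstm2 rose by 1.20 and Gsta4 by 1.15. Acaa1b, a peroxisomal thiolase, rose by 2.23 and was the one of 15 fatty acid oxidation genes past 2-fold (median 0.44). Among 9 adipose genes 4 rose and none fell (median 0.79), led by Dgat2 (1.41) and Adipoq (1.35), the adipocyte hormone adiponectin. The summed level of 2 adipocyte markers, Adipoq and Fabp4, was 10.20, 10.96, 11.99, 12.11 and 12.17. Adipoq is itself among these risers, so the sum is not separate evidence. The part of adipocytes in the result was not tested. None of 10 sterol synthesis genes passed 2-fold (median 0.05).

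Lists of smaller cell populations held few members above the filter. Of 6 nerve and Schwann cell genes 2 rose, Uchl1, a neuronal ubiquitin hydrolase, by 2.29 and the sodium channel Scn7a by 1.35, while Tubb3, a neuronal tubulin also made by tumours, read 8.59, 8.21, 7.22, 6.43 and 2.65 (list median 0.29). None of 5 erythroid genes passed 2-fold (median 0.35), and Alas2, the haem synthesis enzyme of red cell precursors, read 8.24, 6.25, 7.16, 5.82 and 6.44 without an order by dose. None of 2 B and plasma cell genes and none of 2 germline genes did (medians 0.10 and -0.33). With the lowest 50% of genes left out, the medians of the nerve and erythroid lists were 0.85 and 0.63.

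The 2 housekeeping lists were not alike. None of 18 oxidative phosphorylation genes passed 2-fold, their differences ran from -0.29 to 0.56, and the median was -0.01. None of 20 constitutive proteasome genes did, with a range from -0.40 to 0.09 and a median of -0.19. Of these 20, 17 were below 0. The list's median difference, healthy minus sham-treated tumour, was -0.37 in experiment 1 and -0.38 in experiment 2, so it is not a neutral baseline.

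Liver transcripts appeared at 8.5 mM. Of 13 listed genes above the filter 7 rose and none fell. The median was 1.14, or 1.36 with no filter on low genes and 1.87 with the lowest 50% left out. The filter used the mean of all 9 arrays, so a gene low elsewhere could pass it through the arrays where it was high. The larger median under the stricter filter is therefore not a firmer value. Alb read 4.04 in sham-treated tumour, 3.87 at 1.7 mM, 8.83 at 8.5 mM, 10.15 at 17 mM and 4.57 in healthy bladder. Serpina1c, an alpha-1-antitrypsin of hepatocytes, read 3.70, 3.54, 6.73, 8.11 and 3.99, and Serpina1b 3.22, 3.21, 6.07, 7.51 and 3.08. Cyp3a11, a liver cytochrome P450 outside the list, read 3.49, 3.36, 5.49, 6.74 and 3.39. These 4 were low in both untreated tumour and healthy bladder and high on the 2 arrays of higher dose. Ttr, transthyretin, differed from them: it read 4.84, 5.23, 7.56, 8.16 and 8.91, with its highest level in healthy bladder. The array labelled healthy bladder 24 h after 17 mM had Alb at 8.80, and the healthy array 7 days after 17 mM had it at 3.52. The array labelled 24 h also had tumour genes high, unlike the array at 7 days: Birc5, a mitotic survivin, read 7.13 against 3.69 and Cxcl9 8.19 against 4.16. Acaa1b, at 4.03 in sham-treated tumour and 10.05 in healthy bladder of experiment 2, read 9.37 on the array labelled 24 h. Its values thus did not all match the label of healthy bladder, and what the array holds was not tested. The summed level of 4 liver markers was 6.24, 6.40, 9.64, 10.8 and 9.08 on the sham, 1.7 mM, 8.5 mM, 17 mM and healthy arrays. In healthy bladder that sum rests mostly on Ttr. All 4 markers, Alb, Apoa1, Ttr and Serpina1c, are themselves among the risers, so the sum is not separate evidence. Whether these transcripts were made in the bladder or came with the sample was not tested. Kidney transcripts had none of 5 past 2-fold, and Kap, an androgen-regulated kidney protein, read 5.97, 5.79, 5.96, 5.84 and 9.61.

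Promoters of liver genes often hold a site for the hepatocyte factor HNF1, part of which is GTTAAT. These letters were on either strand in 3 of 11 windows of the liver list (27.3%), those of Alb, Serpina1b and Serpina1c, and in 7.10% of all windows. Over every gene with a window, they were in 6.56% of windows of genes that rose, 6.99% of genes that fell and 4.23% of genes within 2-fold. The 150 bases before the start of Alb are shown with GTTAAT, 32 bases before the start, and the CCAAT or ATTGG matches in capitals.
Alb (chr5:90460720-90460869, plus strand): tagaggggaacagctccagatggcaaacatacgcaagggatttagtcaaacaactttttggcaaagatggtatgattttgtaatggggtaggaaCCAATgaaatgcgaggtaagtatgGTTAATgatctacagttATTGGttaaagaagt

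The PBS arrays of experiment 2 give a tumour contrast that shares no array with the step. There, 1809 genes were at least 2-fold higher in healthy than in sham-treated tumour bladder (15.1%) and 1686 at least 2-fold lower (14.1%). Of the 718 genes that rose with dose, 645 were among those higher in healthy bladder, which is 89.8% of the risers and 35.7% of the healthy-high genes. Of the 328 that fell, 255 were among those lower in healthy bladder, 77.7% of the fallers and 15.1% of the tumour-high genes. Together 86.0% of the 1046 genes that changed between the doses also differed at least 2-fold between the PBS bladders, in the matching direction. Across the 11969 genes the differences correlated with r = 0.768 (Spearman's rho 0.759), a description over genes, which are not independent replicates.

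Some genes stood outside this pattern. Of the 1046, 4 changed against it by 2-fold or more on both sides: Ppl and Trp53inp1 fell with dose but were higher in healthy bladder, and Col1a1 and Eln, elastin, rose with dose but were lower in healthy bladder. Of the 142 others, which lay within 2-fold between the PBS bladders of experiment 2, 71 rose and 71 fell. Listed genes among these risers were 5 liver transcripts (Alb, Apoa1, Apoa2, Serpina1b and Serpina1c), 6 matrix and stromal genes (Fn1, Loxl1, Aspn, Mfap4, Lama2 and Mmp2), and Sox17, Ifit3 and Dkk2. Listed genes among the fallers were 5 glucocorticoid-responsive genes (Tsc22d3, Sgk1, Per1, Dusp1 and Errfi1), Lama3 and Gpnmb.

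**Figure D5:**
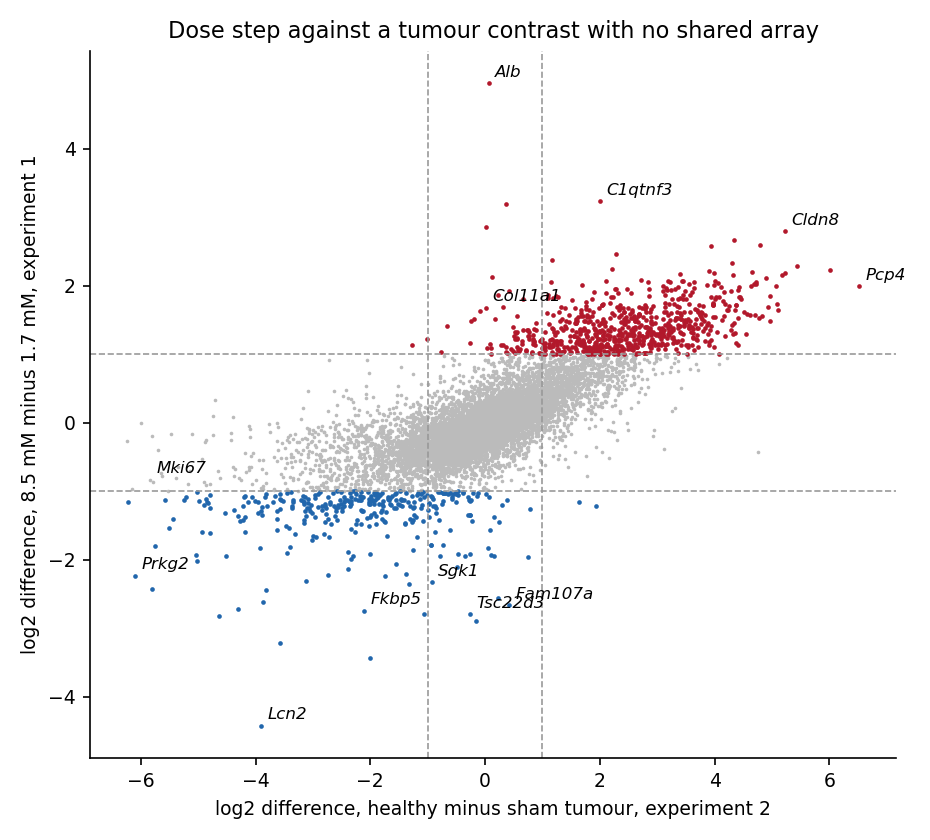
Log2 difference 8.5 mM minus 1.7 mM in experiment 1 (vertical axis) against healthy minus sham-treated tumour in experiment 2 (horizontal axis) for 11969 genes, 1 array behind each value; red rose and blue fell at least 2-fold, and dashed lines mark 2-fold. Most red points lie right of the dashed line (645 of 718) and most blue points left of it (255 of 328), while Alb, Tsc22d3 and Fam107a lie near 0 on the horizontal axis.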

How the data were processed

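The values are the deposited log2 RMA intensities of an Affymetrix mouse PM array (45077 probe sets, 9 arrays). RMA and Transcriptome Analysis Console 4.0.1.36 are named in the submitters' processing notes, and 100 ng of RNA was labelled per array, per the labels' protocols. The labels of the arrays give no build of the genome, and the promoter windows are on GRCm38.p6. Of the probe sets, 28898 named 1 gene, 551 several, 15588 none and 40 were controls. The probe set with the highest mean over the 9 arrays stood for its gene, and genes in the lowest 30% by mean (below 4.16) were left out, leaving 11969 of 17097. The mean includes an array labelled healthy, 24 h. Low intensities compress differences, and precision is limited by the number of arrays.

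The difference is the 8.5 mM value minus the 1.7 mM value. With 1 array a side no test was run, and a gene was called at 2-fold. Members, the 47 gene lists and the naming rule were chosen with earlier results of these data known. The rule names the 12 largest differences each way, up to 4 members of a list past 2-fold with the member farthest the other way, and 30 fixed genes; further genes were chosen after their values were seen. Promoter windows came from RefSeq (GRCm38.p6), and 514 of 718 risers and 257 of 328 fallers had one. The 2-fold rule was run on simulated data with changes larger than 2-fold and the same noise for every gene. That run checks the calculation and does not measure the error of the calls made here. Alternatives were the normalization, centring, filter, probe set summary, fold and low-dose array. Python 3.11.15 with numpy 2.4.6, pandas 2.3.3, scipy 1.17.1 and matplotlib 3.10.9 was used.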

Additional observations from a re-analysis of the deposited data

How the results depend on the processing

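No paired analysis was possible because the result comes from no test and each dose has 1 array. Counts of genes higher and lower at 8.5 mM stayed within 1.5 times the main counts (718 and 328) under joint quantile normalization, array centring, no filter, the mean of probe sets, and, both chosen after seeing the data, a filter on experiment 1 alone and a minimum level of 6. At 1.5-fold they were 1457 and 1028, and at 4-fold 43 and 25. With the lowest 50% of genes left out, 203 were lower. With sham-treated tumour in place of the 1.7 mM array, also chosen after seeing the data, 1220 were higher. The share of changed genes that also differed 2-fold in the matching direction between the PBS bladders of experiment 2 was 86.0%. Its Wilson 95% interval, 83.8 to 88.0, is counting error only. It treats genes as independent, which they are not, and leaves out variation between animals and arrays. The share was 88.7% after joint normalization, 89.1% without the lowest 50% and 73.5% at 4-fold.

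Among lists with a median of at least 1 either way, the mean of probe sets gave 0.74 for desmosome and 0.90 for contraction genes, no filter gave 0.84 for contraction genes, and the lowest 50% left out gave 1.87 for liver transcripts. Sham-treated tumour in place of 1.7 mM gave 2.18 for umbrella cell, 1.47 for desmosome, 1.55 for smooth muscle, 1.99 for contraction, 1.80 for WNT and hedgehog and -0.25 for glucocorticoid-responsive genes. No list or named gene past 2-fold changed sign under any alternative run on it. The mean of probe sets moved 30 of 153 named genes by more than the SD of 0.242; joint normalization and centring moved none of 155. Of genes with several probe sets above the filter, all agreed in sign for 251 of 262 risers and 93 of 96 fallers, and all passed 2-fold for 123 and 48. The causes of these shifts were not tested.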

Other observations

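A few enzyme genes outside the lists also rose from 1.7 to 8.5 mM; they were chosen after their values were seen. Cers3, a ceramide synthase of epithelial barriers, read 5.86 in sham-treated tumour, 6.95 at 1.7 mM, 9.10 at 8.5 mM, 9.24 at 17 mM and 9.85 in healthy bladder. Sptlc3, a subunit of the enzyme that starts sphingolipid synthesis, read 5.12, 5.69, 7.80, 8.35 and 9.67 on the same arrays. Hsd17b2, which inactivates sex steroids, read 4.27, 5.10, 7.31, 7.74 and 7.89, and Fbp1, a gluconeogenic phosphatase, 3.89, 4.79, 6.97, 7.65 and 8.56. All 4 differed by between 2.11 and 2.21 across the step and were highest in healthy bladder.

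A pair of genes had no order by dose. Igfbp2, a binding protein for insulin-like growth factors, read 10.59, 9.70, 11.71, 12.07 and 12.04, lowest at 1.7 mM, and rose by 2.01. Igkj1, an immunoglobulin light chain segment of plasma cells, read 8.16, 7.56, 8.97, 7.37 and 5.74 and rose by 1.41. Its tumour-minus-healthy difference departed by 1.76 between the experiments, more than its rise.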
